A study of Mus musculus with 11 samples.

Results

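Homeostatic microglia genes make up the expression signature of resting microglia in the healthy brain, though some of them, such as Csf1r and Mertk, are also expressed by other macrophages. A set of 9 of them was followed here among the 36529 genes counted in each sample. They were Csf1r, Cx3cr1, Gpr34, Tgfbr1 and Mertk, which encode receptors, Tmem119, which encodes a membrane protein, Olfml3, which encodes a secreted protein, and Sall1 and Mef2a, which encode transcription factors. The genes were taken by their symbols as members of this signature, and P2ry12 was left out of the set because it is listed at 0 in every sample.

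The samples were 11 RNA-seq libraries of BV2 cells, a virus-transformed line of mouse microglia labelled as strain C57BL/6. In the first experiment, 3 samples received a recombinant, His-tagged amino-terminal fragment of human apolipoprotein E4 with residues 1 to 151 (nApoE4) at 25 μg/ml for 5 h, and 3 samples were its untreated controls (untreated A). In the second experiment, 2 samples received the same residues of apolipoprotein E3 (nApoE3) at the same dose and time, and 3 samples were its untreated controls (untreated B). The labels call these controls untreated and name a PBS vehicle, whereas the methods of the study name conditioned medium. The fragments differ by 1 amino acid. All samples came from this line and the labels name no other treatment. Nothing in the labels says that the samples of a group were separate cultures, so that p-values measure the spread between these samples, which may be technical.

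Microglia are the resident macrophages of the brain and depend on CSF1R for survival. Their resting program is kept by TGF-beta signalling through TGFBR1 and by transcription factors such as SALL1 and members of the MEF2 family. The program is known to decline when microglia are activated or kept in culture, where TGF-beta is scarce.

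The libraries held 39732710 to 44162511 counts on genes in the first experiment and 55809688 to 69768666 in the second. Of 10 fixed microglia and macrophage markers, 9 reached a mean of 1 CPM (read counts scaled to library size) in some group, and Aif1 was at most 0.142 CPM in any sample. Their summed level was 3188 to 3733 CPM in untreated A, 3847 to 3960 with nApoE4, 2586 to 2709 in untreated B and 3660 to 3712 with nApoE3. Among markers of other cell types, those of endothelium summed to 150 to 177, 62.8 to 72.0, 64.2 to 66.5 and 43.4 to 48.1 CPM in the same order of groups, nearly all of it Kdr, with Cldn5 at 0. Those of oligodendrocytes, with Mog at 0, summed to 25.4 CPM at most, those of astrocytes to 7.89, of neurons to 6.39, of lymphocytes to 0.563 and of fibroblasts to 0.390. The astrocyte sum was higher in both treated groups than in their controls, at 5.88 to 7.89 against 1.36 to 1.92 CPM. Most of it was Slc1a2, with means of 0.999 CPM in untreated A, 6.43 with nApoE4, 1.06 in untreated B and 4.37 with nApoE3. Slc1a3 was higher too, whereas Aldh1l1 had a lower mean with nApoE4, at 0.122 against 0.282 CPM. Gfap was at most 0.0933 CPM and Aqp4 at most 0.0172 CPM in any sample. The part of any of these markers in the results below was not tested.

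The first question was which of these genes BV2 cells express at all. Of the 9 genes, 7 had more than 3 counts in some sample, and 5 of them, Csf1r, Mef2a, Mertk, Tgfbr1 and Tmem119, reached a mean of 1 CPM in some group. Cx3cr1 and Olfml3 stayed under 1 CPM in every sample. Sall1 had 4 counts over all 11 samples, and Gpr34 had none, a value that sets no limit on its level because all of its exon bases lie inside another gene.

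Per kilobase of exon, Csf1r stood far above the others. Whether reads in introns were counted as well is not given, so the order among the other genes may depend on gene length. In untreated A it stood at 185 ± 4.64 CPM per kb (SD, n = 3). Mertk followed with 10.5 ± 1.56, Mef2a with 6.32 ± 0.557, Tgfbr1 with 5.36 ± 0.259 and Tmem119 with 1.28 ± 0.0998 CPM per kb. In untreated B the order was Csf1r at 179 ± 3.77, Mertk at 22.1 ± 0.237, Tgfbr1 at 8.37 ± 0.0841, Mef2a at 8.20 ± 0.111 and Tmem119 at 3.90 ± 0.259 CPM per kb (SD, n = 3), where Tgfbr1 and Mef2a lay within their spread of each other. With either fragment Mertk stood below Mef2a and Tgfbr1. With nApoE4 Mef2a reached 9.74 ± 0.404, Tgfbr1 3.93 ± 0.183 and Mertk 2.13 ± 0.132 CPM per kb (SD, n = 3). With nApoE3 the same genes stood at 7.54 ± 0.0496, 5.84 ± 0.0935 and 3.55 ± 0.0272 CPM per kb (SD, n = 2).

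**Figure D1:**
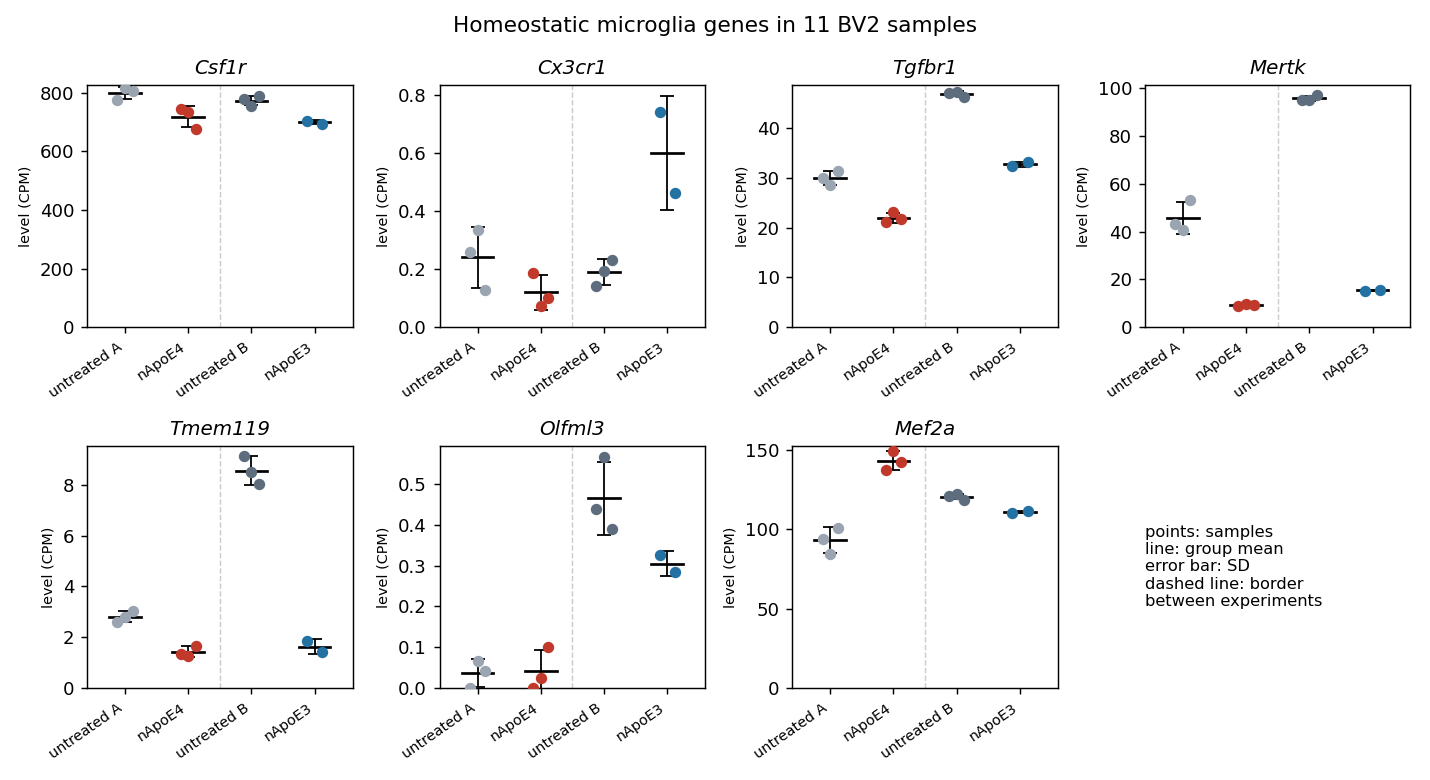
Level of the 7 detected homeostatic genes in each sample, in CPM on a linear axis from 0, with 1 panel per gene and the 4 groups along the horizontal axis; points are samples, the line is the group mean and the error bar the SD. Mertk, Tgfbr1 and Tmem119 lie lower in both treated groups than in the controls of the same experiment, and Mef2a lies higher with nApoE4 than in untreated A.

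The 0 of Gpr34 has to be read beside its position. Gpr34, a receptor for lysophosphatidylserine, spans chrX:13622650-13640859 (GRCm38.p6) and lies wholly inside Cask, on the other strand and with exons apart from those of Cask. Of 713 protein-coding genes wholly inside another gene, 678 had 0 counts in all 11 samples, or 95.1% (exact 95% interval 93.2 to 96.6%). Where the gene lay inside 1 gene on the other strand with exons apart, as Gpr34 does, 239 of 249 were at 0, or 96.0%. Of 14234 protein-coding genes with no overlapping gene, 18.1% were at 0, and of 5496 that another gene overlapped in part, 3.31% were at 0. A 0 for Gpr34 therefore cannot be told apart from reads left uncounted because they fell in 2 genes. The same holds for P2ry12 and P2ry13, purine receptors of microglia that lie inside Med12l and are listed at 0.

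**Figure D2:**
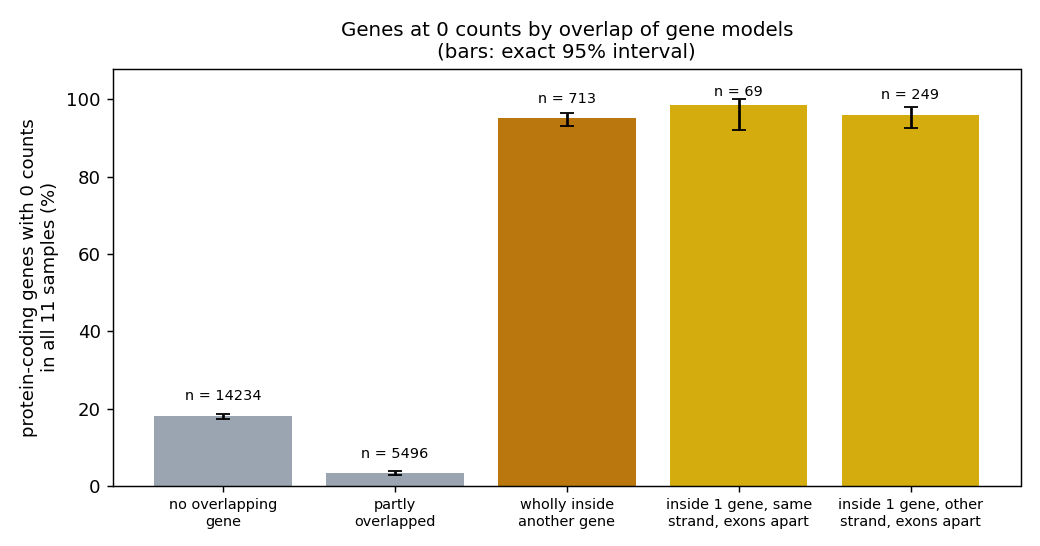
Share of protein-coding genes with 0 counts in all 11 samples, in percent, by how their gene model overlaps others; bars give the share, error bars the exact 95% interval and n the number of genes. Genes wholly inside another gene were at 0 in 95.1% of cases, against 18.1% of genes with no overlap.

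Sall1, which encodes a transcription factor that maintains microglial identity, lies at chr8:89027242-89044162 on the minus strand. It had 0 counts in all samples of the first experiment, 0, 0 and 2 counts in untreated B and 1 count in each nApoE3 sample. Another gene model, Gm3134, covers 17.3% of its span but 4.30% of its exon bases, so that most of its exons could be counted. The 0 counts in the first experiment allow up to 3 counts per library, or 0.0679 to 0.0755 CPM, a limit that covers counting error only. No fold change was computed for Sall1 or Gpr34.

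Each fragment was then compared with its own controls by edgeR's quasi-likelihood test with Benjamini-Hochberg adjustment over all genes tested, and a gene was called at an adjusted p under 0.05. With nApoE4, 5 of the 9 genes had enough counts for the test, of which 3 fell, 1 rose and 1 was not called. Of all 14240 genes tested, 57.2% were called, 28.6% as lower and 28.6% as higher. With nApoE3, 7 of the 9 genes could be tested, of which 5 fell, 1 rose and 1 was not called. Of all 14817 genes tested there, 67.7% were called, 34.6% as lower and 33.1% as higher. Calls were thus common over all genes, and a gene that passed only through the group where it was high had to differ, so the sizes below carry more than the counts. In bulk samples, fewer cells of a type and less RNA per cell cannot be told apart.

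Mertk, which encodes a receptor with which phagocytes take up dying cells, changed most. It lies at chr2:128698915-128803162 on the plus strand, and no other gene overlaps it. It stood at 43.2, 40.5 and 53.3 CPM in untreated A and at 8.70, 9.84 and 9.22 CPM with nApoE4. In the second experiment it stood at 94.99, 95.14 and 96.84 CPM in untreated B and at 15.3 and 15.5 CPM with nApoE3. The treated samples lay under every control in both experiments, and kept 19.1 to 21.6% of the control mean with nApoE4 and 16.0 to 16.2% with nApoE3. The log2 fold change was -2.30 with nApoE4 (SE 0.11, edgeR adjusted p = 1.14e-07) and -2.64 with nApoE3 (SE 0.04, edgeR adjusted p = 2.31e-14), or 4.92-fold and 6.24-fold lower. Of all genes tested, 0.969% had a lower log2 fold change than Mertk with nApoE4 and 0.499% with nApoE3. The difference between the 2 responses, 0.33 on the log2 scale with a 95% interval of 0.05 to 0.62, was not called (edgeR adjusted p = 0.0804). Without replicate 3 of untreated A, the highest Mertk sample of its group, it was 0.46 and was called (edgeR adjusted p = 8.73e-04).

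Tgfbr1, which encodes the type I TGF-beta receptor, fell less. The gene lies at chr4:47353222-47414926 on the plus strand, and Gm32435 covers 53.4% of its span but 14.2% of its exon bases. The level was 30.0, 28.6 and 31.5 CPM in untreated A and 21.1, 23.1 and 21.8 CPM with nApoE4. It was 47.1, 47.3 and 46.4 CPM in untreated B and 32.4 and 33.1 CPM with nApoE3. The groups of each experiment did not overlap, and the treated samples kept 69.0 to 77.0% of their control mean. The log2 fold change was -0.44 with nApoE4 (SE 0.07, edgeR adjusted p = 3.44e-04) and -0.53 with nApoE3 (SE 0.03, edgeR adjusted p = 2.92e-08). The responses differed by 0.07 on the log2 scale with a 95% interval of -0.09 to 0.23, which was not called (edgeR adjusted p = 0.53).

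The promoters of the genes that fell with both fragments, and that the RefSeq promoter table holds, are shown because both genes moved the same way in each experiment. They are the windows of 300 bases from 250 before to 50 after the first listed start, for Mertk chr2:128698665-128698964 and for Tgfbr1 chr4:47352972-47353271, both on the plus strand of GRCm38.p6, written 5′ to 3′.
Mertk: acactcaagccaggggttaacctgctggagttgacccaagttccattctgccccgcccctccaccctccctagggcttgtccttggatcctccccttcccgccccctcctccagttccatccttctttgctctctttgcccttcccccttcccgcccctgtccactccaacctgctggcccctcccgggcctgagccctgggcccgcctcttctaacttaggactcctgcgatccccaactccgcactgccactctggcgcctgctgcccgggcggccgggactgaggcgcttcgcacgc
Tgfbr1: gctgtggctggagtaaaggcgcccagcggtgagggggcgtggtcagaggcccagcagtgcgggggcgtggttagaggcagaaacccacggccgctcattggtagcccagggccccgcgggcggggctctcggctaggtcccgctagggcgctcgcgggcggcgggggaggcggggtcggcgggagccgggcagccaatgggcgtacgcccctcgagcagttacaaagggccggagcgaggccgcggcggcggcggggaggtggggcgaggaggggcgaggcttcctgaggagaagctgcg
Both strands were searched for GAGGAA (the core of PU.1 sites), TGANTCA (AP-1), CAGACA (a SMAD box), an IRF element made of a pair of GAAA letters with any 2 bases between them and GGGANTTCC (1 form of an NF-kB site). Neither window holds any of them, which says only that these letters are not in these windows, so no base is in capitals. Among all 32851 promoter windows of the table, 28.3% hold GAGGAA, 7.81% TGANTCA, 21.0% CAGACA, 3.44% the IRF element and 1.68% GGGANTTCC. In all, 6 of the 9 genes had 9 windows in the table. The only matches were 1 SMAD box and 1 PU.1 core in a second Tgfbr1 window and 2 PU.1 cores in a Mef2a window. Tmem119, Gpr34 and Csf1r have no entry.

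Csf1r, which encodes the receptor for CSF1 and IL-34, was by far the most abundant of the genes and changed little. It lies at chr18:61105572-61131139. It stood at 776, 814 and 807 CPM in untreated A, at 743, 733 and 676 with nApoE4, at 777, 755 and 787 in untreated B and at 703 and 694 with nApoE3. Every treated sample lay below every control of its experiment, while the 2 control groups overlapped, as did the 2 treated groups. The log2 fold change was -0.15 with both fragments. It was called with nApoE3 (SE 0.02, edgeR adjusted p = 4.82e-05) and not with nApoE4 (SE 0.07, edgeR adjusted p = 0.0802). The difference between the responses was -0.01 with a 95% interval of -0.16 to 0.14 (edgeR adjusted p = 0.937), and its sign changed with the filter and with single samples left out.

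Cx3cr1 encodes the receptor for fractalkine, a ligand on neurons, and lies at chr9:120048683-120068296 on the minus strand. It had 11, 15 and 6 counts in untreated A, 8, 3 and 4 with nApoE4, 10, 12 and 13 in untreated B and 43 and 26 with nApoE3. Both nApoE3 samples lay above all others, at 0.739 and 0.460 CPM. The increase with nApoE3 was 3.19-fold, a log2 fold change of 1.67 (SE 0.34, edgeR adjusted p = 8.61e-04). In the first experiment the counts of the groups overlapped and were too low for the test. Over all 11 samples the response to nApoE4 was lower than that to nApoE3 by 2.65 on the log2 scale (SE 0.62, edgeR adjusted p = 0.00662), a value that rests on these low counts and could not be tested with a minimum of 10 counts in every sample.

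Tmem119 encodes a membrane protein used as a marker of resident microglia and lies at chr5:113793729-113800396 on the minus strand with no overlapping gene. It stood at 2.61, 2.79 and 3.04 CPM in untreated A and at 1.35, 1.25 and 1.66 CPM with nApoE4. In the second experiment it stood at 9.15, 8.49 and 8.02 CPM in untreated B and at 1.84 and 1.42 CPM with nApoE3. Treated and control samples did not overlap in either experiment, whereas the 2 treated groups overlapped each other. The log2 fold change was -0.98 with nApoE4 (SE 0.16, edgeR adjusted p = 5.95e-04) and -2.40 with nApoE3 (SE 0.12, edgeR adjusted p = 2.82e-09). The fall with nApoE3 was larger by 1.41 on the log2 scale (SE 0.20, edgeR adjusted p = 2.15e-04). The controls differed as well, with 3.01-fold more Tmem119 in untreated B than in untreated A (edgeR adjusted p = 3.21e-06).

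Olfml3, which encodes a secreted olfactomedin-like protein, lies at chr3:103735394-103738001 on the minus strand with no overlapping gene. It had 0, 3 and 2 counts in untreated A and 0, 1 and 4 with nApoE4, at or near the floor of 3 counts per library, and no fold change is given there. In the second experiment it had 31, 35 and 22 counts in untreated B and 19 and 16 with nApoE3. The lower level with nApoE3, a log2 fold change of -0.61 with a 95% interval of -1.27 to 0.05, was not called (edgeR adjusted p = 0.0911). Olfml3 stood at 0.390 to 0.565 CPM in untreated B and at most at 0.0669 CPM in untreated A. No fold is given between these controls, because Olfml3 passed the filter on low counts through untreated B alone.

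Mef2a, which encodes a MADS-box transcription factor, moved in opposite directions. It lies at chr7:67231163-67376456 on the minus strand with no overlapping gene. It stood at 93.9, 84.2 and 100 CPM in untreated A and at 137, 149 and 142 CPM with nApoE4. In the second experiment it stood at 121, 122 and 119 CPM in untreated B and at 110 and 111 CPM with nApoE3. Groups did not overlap in either experiment. Mef2a rose 1.55-fold with nApoE4, a log2 fold change of 0.63 (SE 0.08, edgeR adjusted p = 6.98e-05), and fell by 0.13 on the log2 scale with nApoE3 (SE 0.03, edgeR adjusted p = 7.56e-04). The responses differed by 0.74 on the log2 scale (SE 0.09, edgeR adjusted p = 4.28e-05). The fall with nApoE3 was not called when all 11 samples shared 1 estimate of the spread (edgeR adjusted p = 0.138).

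**Figure D3:**
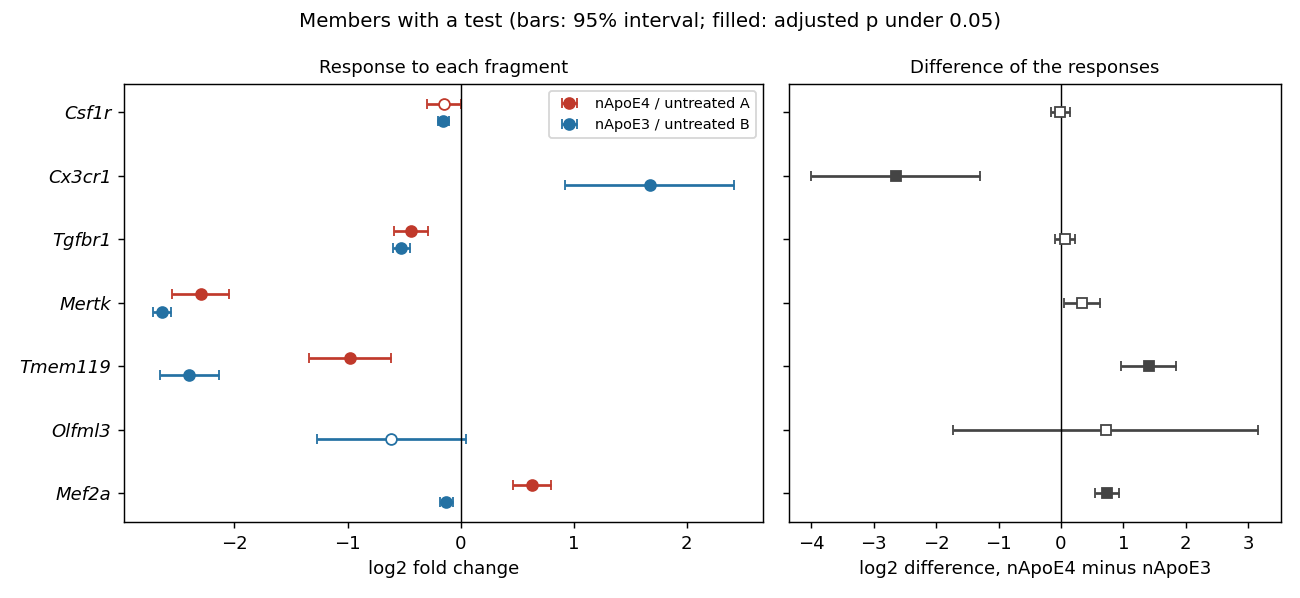
Fitted log2 fold changes of the homeostatic genes with a test; the left panel gives each fragment against its own untreated controls, the right panel the nApoE4 response minus the nApoE3 response, bars are 95% intervals and filled symbols have an adjusted p under 0.05. Mertk lies at -2.30 and -2.64 in the left panel, and in the right panel Tmem119, Mef2a and Cx3cr1 are filled.

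The difference between the responses was called for 3 of the 7 genes tested, Tmem119 and Mef2a as higher with nApoE4 and Cx3cr1 as lower, against 28.3% of all 15287 genes tested, 14.4% as higher and 13.9% as lower. These differences have to be read beside the untreated controls, which came from separate experiments. Between the controls, 4 genes, Tmem119, Mertk, Tgfbr1 and Mef2a, were called higher in untreated B and 0 lower by edgeR, and likewise 0 lower by DESeq2 or at an unadjusted edgeR p under 0.05. Of all 14249 genes tested, 69.3% were called, 34.4% as higher and 34.9% as lower. Olfml3 was called as higher too but is left out of the count, since it passed the filter on low counts through untreated B alone and had to differ. The log2 difference, untreated B minus untreated A, was 1.59 for Tmem119, 1.05 for Mertk, 0.63 for Tgfbr1 and 0.36 for Mef2a, with edgeR adjusted p of 3.21e-06, 2.29e-05, 1.21e-05 and 0.00141. Csf1r differed by -0.06 and Cx3cr1 by -0.37, neither of which was called, with edgeR adjusted p of 0.215 and 0.427. Experiment and fragment cannot be told apart in any direct comparison of levels between the treated groups.

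Other genes of the resting program, from a list of 40, were mostly lower. With nApoE4, 19 of the 28 that could be tested fell and 1 rose, with a median log2 fold change of -0.60, against a median of 0.00 over all genes tested. With nApoE3, 22 of 28 fell and 4 rose, with a median of -0.46. Over all genes tested, 28.6% fell and 28.6% rose with nApoE4, and 34.6% fell and 33.1% rose with nApoE3. Adgrg1, which encodes an adhesion receptor of microglia, fell from 6.89 ± 0.686 to 1.62 ± 0.192 CPM with nApoE4 (SD, n = 3 each), or by 2.08 on the log2 scale, and by 2.52 on the log2 scale with nApoE3. Susd3, a membrane protein gene, fell by 1.78 and 1.97 on the log2 scale. Lpcat2, which encodes a lysophospholipid acyltransferase, rose by 2.36 with nApoE4 and by 1.52 with nApoE3 on the log2 scale. Trem2, a receptor gene of microglia, had 2578, 112 and 62 counts in untreated A, so that 1 library decides its mean. Its changes with the fragments were not called. Under 12 alternatives in processing, its log2 fold change with nApoE4 ran from -3.57 to 0.64 and was called in 4.

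Genes around TGFBR1 moved both ways. Of 29 tested TGF-beta genes, 12 fell and 8 rose with nApoE4, with a median log2 fold change of -0.11, and 13 fell and 12 rose with nApoE3, with a median of 0.02. Over all genes tested, 28.6% fell and 28.6% rose with nApoE4, and 34.6% fell and 33.1% rose with nApoE3. The counts include Itgb8 with both fragments, Lrrc32 with nApoE4 and Tgfbr3 with nApoE3 as higher. These passed the filter on low counts through the treated samples alone and had to rise. Ltbp1, counted as lower with nApoE4, passed through the controls alone and had to fall. Tgfbr2, which encodes the type II receptor, fell by 0.72 with nApoE4 and by 0.48 with nApoE3 on the log2 scale. Acvrl1, another type I receptor gene, fell by 0.69 and 0.45, and Bambi, which encodes a decoy receptor, by 1.74 and 1.79. Skil, which encodes a repressor of SMAD proteins, rose by 1.25 and 0.70 on the log2 scale. Tgfb1, the ligand, had a log2 fold change of -0.15 with nApoE4 (edgeR adjusted p = 0.0799), which was not called, and rose by 0.18 with nApoE3 (edgeR adjusted p = 1.81e-04).

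Partners of the other receptors also went in both directions, as did all genes tested, of which 28.6% fell and 28.6% rose with nApoE4. With nApoE3, 34.6% of all genes tested fell and 33.1% rose. In the CSF1R list, 10 of 23 tested genes fell and 5 rose with nApoE4, and 12 of 24 fell and 8 rose with nApoE3. Csf1, a ligand gene, is listed at 0 and lies inside Gm40121, while Il34, the other ligand gene, stood at 0.990 ± 0.227 and 1.04 ± 0.147 CPM without and with nApoE4 (SD, n = 3 each), a difference that was not called (edgeR adjusted p = 0.797). In the MERTK and efferocytosis list, 12 of 23 tested genes fell and 5 rose with nApoE4, and 11 fell and 8 rose with nApoE3. Axl, the gene of a related receptor, had 2, 1 and 4 counts in untreated A against 23, 18 and 13 with nApoE4, and 4, 6 and 10 in untreated B against 64 and 66 with nApoE3. Axl is among the genes counted as higher with each fragment, but it would not have passed the filter on low counts without the treated samples, so no fold change or p is given. Gas6, a ligand of both receptors, had 3 counts in all, with 84.4% of its exon bases inside Tmem255b. Pparg and Ppard, counted as lower in this list with nApoE4, would not have passed the filter on low counts without the controls. Ppard is also counted as higher with nApoE3, at 16 and 90 counts, so that 1 library decides its mean.

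In the CX3CR1 list, 4 of 11 tested genes rose and 3 fell with nApoE4, and 6 rose and 3 fell with nApoE3. Over all genes tested, 28.6% rose and 28.6% fell with nApoE4, and 33.1% rose and 34.6% fell with nApoE3. Cx3cl1 is among the genes counted as higher with nApoE4, but it passed the filter on low counts through nApoE4 alone. It therefore had to rise. Adam17, which encodes a protease that sheds MERTK and fractalkine, rose by 1.32 and 1.22 on the log2 scale. Among the genes for lysophosphatidylserine, only 2 could be tested. Pla1a, which encodes a phospholipase that makes this lipid, rose by 3.56 and 2.71, and Abhd12, which encodes a lipase that degrades it, fell by 0.68 and 0.56 on the log2 scale.

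Transcription factors were mostly lower with both fragments. Of 23 tested genes of the SALL, MEF2, class IIa HDAC and microglial factor list, 16 fell and 3 rose with nApoE4, with a median log2 fold change of -1.28, and 18 fell and 4 rose with nApoE3, with a median of -0.94. Over all genes tested, 28.6% fell and 28.6% rose with nApoE4, and 34.6% fell and 33.1% rose with nApoE3. A low-count gene counted as lower with each fragment passed the filter through the controls alone and had to fall. Within the MEF2 family Mef2c fell by 1.58 and 1.78 and Mef2d by 1.28 and 0.59 on the log2 scale, whereas Mef2a rose with nApoE4. Of the SALL family, Sall2 rose by 0.62 and 0.94 and Sall3 fell by 0.60 and 0.70. Spi1, which encodes PU.1, rose by 1.35 and 1.01 on the log2 scale.

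**Figure D4:**
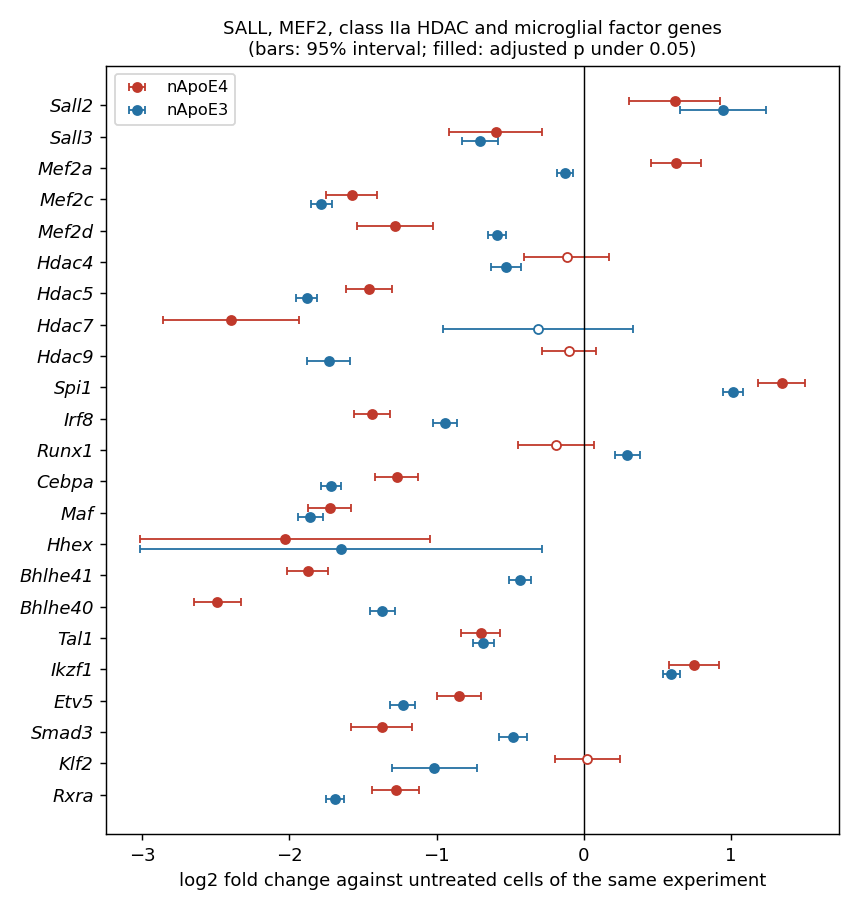
Fitted log2 fold changes of the SALL, MEF2, class IIa HDAC and microglial factor genes with nApoE4 and with nApoE3 against the untreated cells of the same experiment, for the genes reported by name; bars are 95% intervals and filled symbols have an adjusted p under 0.05. Mef2a lies right of 0 with nApoE4 and left of 0 with nApoE3, while Mef2c and Mef2d lie left of 0 with both.

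The genes whose log2 levels ran most like those of a homeostatic gene over the 11 samples were found among 8837 genes with a mean of at least 10 CPM. For Mertk they were Abca9, Rxra and Brca1 (Pearson's r = 0.998, 0.998 and 0.997), and for Tgfbr1 Spice1, Pds5b and Rad54l (0.997, 0.994 and 0.993). For Tmem119 they were Nek7, 2610044O15Rik8 and Gna12 (0.986, 0.986 and 0.984), for Csf1r Rogdi, Rps6ka1 and Abhd14b (0.956, 0.949 and 0.946), and for Mef2a Asap1, Sepsecs and Cep162 (0.987, 0.986 and 0.982). The samples fall into 4 groups of 2 experiments that differ in depth, so these values describe the pattern over groups and carry no test. Rxra, which encodes a nuclear receptor partner, stood at 124 ± 8.55 CPM in untreated A, 50.9 ± 2.72 with nApoE4, 205 ± 2.96 in untreated B (SD, n = 3 each) and 64.0 ± 1.04 CPM with nApoE3 (SD, n = 2).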

How the data were processed

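RNA-seq counts of 11 BV2 samples were analysed. According to the study's methods and the submitters' processing notes, reads were trimmed with Trim Galore 0.5.0, checked with FastQC 0.11.8 and mapped to GRCm38.p6 with HISAT2 2.1.0. The authors counted reads per gene with HTSeq 0.11.0 and deposited raw counts per sample. The annotation release, strand setting and overlap mode are not given in the sources used here, so reads in overlapping genes may be left out or, without strand, shared. Of the tallied reads, 76.0 to 77.7% were on genes and 3.24 to 3.56% were ambiguous; tally lines were left out of library sizes and tests.

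Counts were tested in R 4.3.3 with edgeR 4.0.16 (filterByExpr, TMM normalization, quasi-likelihood F test, Benjamini-Hochberg adjustment), each fragment against its own controls, the controls against each other, and the difference of the responses over 4 group means. Levels are CPM on TMM library sizes over all 11 samples. Standard errors were derived from the F statistic, as log2 fold change over its root. Intervals use the total degrees of freedom of the quasi-likelihood fit, prior plus residual. Scripts were tested on simulated data.

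Gene positions were taken from RefSeq spans (33061 of 36529 genes matched 1 span) with strands and exons from GENCODE for the same build. Levels per kb divide by the exon bases outside other genes. Promoters came from RefSeq. Alternatives were DESeq2 1.42.0, its size factors in edgeR, 2 other filters on low counts (at least 1 count in some sample, at least 10 counts in every sample), 1 fit of all samples, a replicate block, thinning to the smallest library with a fixed seed and leaving out each replicate. For each list the genes with the largest called changes, at most 4 per comparison, and ligands and family members were eligible to be named, and the text names a subset chosen after their values were seen. For the members the 3 genes most like each are named. Members, lists and rules were chosen with earlier results of these data known. Grk2 and P2ry10b were not analysed here, and 1 gene counted in a list is not reported by name.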

Additional observations from a re-analysis of the deposited data

Results flagged for a closer look

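By the edgeR quasi-likelihood test of the difference itself, the responses differed with adjusted p under 0.05 for 3 of the 7 homeostatic genes tested. They also differed for 19 list genes from the subset chosen for naming, and further list genes that were called are not given. Among the 19, Cx3cl1 and Siglech passed the filter on low counts only through the group where each was high. Their values are given below as fitted, but their calls are no evidence of a difference. Of all genes tested, 28.3% differed, a share that cannot be set beside the 19, which were chosen after their values were seen. Values are the nApoE4 response minus the nApoE3 response on the log2 scale. For the homeostatic genes they were 1.41 for Tmem119, -2.65 for Cx3cr1 and 0.74 for Mef2a, and these calls held in each alternative in which the gene could be tested. Among ligands, receptors and TGF-beta genes the values were 1.61 for Cx3cl1, -0.35 for Tgfb1, -0.26 for Tgfbr2, -0.25 for Acvrl1, -0.97 for Eng, 0.53 for Skil and 0.68 for Smad7. Among transcription factors and HDACs they were -0.70 for Mef2d, 0.41 for Hdac5, 1.62 for Hdac9, 0.32 for Spi1, -1.46 for Bhlhe41, 0.43 for Cebpa and 0.40 for Rxra. The others were -0.91 for Gab3, 0.36 for Rgs2, 0.84 for Pla1a, 0.83 for Lpcat2 and -3.23 for Siglech.

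Hdac9 stood at 55.0 ± 6.30 CPM in untreated A and 51.1 ± 1.21 with nApoE4 (SD, n = 3 each), and at 29.4 ± 1.11 in untreated B (SD, n = 3) and 8.88 ± 1.17 CPM with nApoE3 (SD, n = 2). Cx3cl1 had at most 15 counts in any sample not treated with nApoE4. It would not have passed the filter on low counts without the nApoE4 samples, so the filter favoured a positive difference. Siglech had at most 10 counts in any sample, and its call held in 3 of 12 alternatives. It passed the filter through untreated A alone, so the filter favoured a negative difference. The calls of Cx3cl1 held in 6 of 16 alternatives, of Pla1a in 6 of 17, of Tgfbr2 in 9, of Acvrl1, Eng and Gab3 in 10, of Rgs2 in 11, of Spi1 in 15 and of Rxra in 16 of 17. All 10 of these genes lost their call with a replicate block, and all but Rxra lost it without replicate 2 of nApoE3. Those other than Spi1 and Rxra also lost it without further single samples. The other 9 list genes flagged here kept their calls in every alternative. The controls of the experiments differ for 69.3% of all genes tested, and their part in these differences was not tested.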

How the results depend on the processing

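Of 348 fits of a homeostatic gene under an alternative, 336 kept direction and call. Csf1r with nApoE4 was called with DESeq2 (adjusted p = 0.0396) and with all 11 samples in 1 fit (adjusted p = 0.0107). Mef2a with nApoE3 lost its call in that fit (adjusted p = 0.138). Olfml3 with nApoE3 was called on thinned counts (adjusted p = 0.0354). The Mertk difference was called with genes of at least 1 count (adjusted p = 0.0189) and without untreated A replicate 3 (0.46, adjusted p = 8.73e-04). The Csf1r difference changed sign to 0.0266 with genes of at least 1 count, and lay between -0.0345 and 0.0326 with single samples left out. That of Olfml3 lay between -0.87 and 1.40, with the negative value without nApoE4 replicate 3, and neither was called. With at least 10 counts in every sample, 0 homeostatic genes were called lower in the difference, against 1 otherwise, because Cx3cr1 is then not tested. Samples with the same replicate number did not deviate together, with correlations of -0.0386, -0.172 and -0.0624 for nApoE4 and -0.00792 and -0.0126 for nApoE3. They share only a number, and a replicate block lowered the genes called higher in the difference from 2208 to 1150 and lower from 2123 to 1157, with no call of a homeostatic gene changed. The share of enclosed genes at 0 was 96.8% with exons apart and 97.3% with exons overlapping, against 95.1% in all. Levels in CPM without TMM moved by more than 1 SD in 8 of 27 cases, and 33 of 756 list counts moved by over 1.5 times, each in the difference. Where leaving out a sample left 1 nApoE3 sample, that sample is assumed to vary like the other groups. Causes were not tested beyond the filter on Cx3cr1. With 2 nApoE3 samples and few counts, depth limits Cx3cr1, Olfml3 and Sall1.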
